A study of Homo sapiens with 6 samples.

Results

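The genes that encode inhibitors of cyclin-dependent kinases (CDKs) and the GADD45 stress proteins were followed in MDA-MB-231 cells with and without khellin, a natural furanochromone of Ammi visnaga. The members were chosen by gene name, 10 genes in all, and 9 of them were found among the 27776 genes of the deposited count table. No row was found for CDKN2B, an inhibitor of CDK4 and CDK6, so it is not described further. Each listed gene had at least 1 read over the 6 libraries. For CDKN2B, a gene without reads and a gene left out of the annotation therefore cannot be told apart. MDA-MB-231 is a human triple-negative breast cancer line known to carry mutant p53, and polyadenylated RNA was sequenced from 3 control and 3 khellin libraries. The sample labels used here give no khellin dose, exposure time or vehicle. The titles name the first group control. The series design, in contrast, sets khellin against cells described as docetaxel-resistant, so it cannot be told from these labels whether the control cells were resistant. VIM, a mesenchymal marker, was abundant (57891 to 66404 reads per library), and CDH1, the epithelial cadherin gene, had 0 to 2 reads. Among other luminal and epithelial markers, ESR1 (5 to 13 reads) and PGR (4 to 17) were also low. ERBB2 (2983 to 3663) and KRT18 (2185 to 2676) were clearly expressed, and EPCAM (97 to 143) and GATA3 (170 to 208) were present at a lower level. Total counts per library ranged from 28631578 to 30956610, and 15865 genes passed the filter on low counts.

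CDK inhibitors restrain the kinases that drive cells from one phase of the cycle to the next. The Cip/Kip proteins, encoded by CDKN1A, CDKN1B and CDKN1C, bind cyclin and CDK together and act on several CDK complexes. The INK4 proteins, encoded by CDKN2B, CDKN2C and CDKN2D among others, bind CDK4 and CDK6 alone and keep D-type cyclins away. CDKN3 differs in kind, since it encodes a phosphatase that removes the activating phosphate from CDK2, and its gene is known to be expressed with the mitotic genes. GADD45 proteins are small acidic stress sensors that bind CDK1, PCNA and the kinase MTK1 (MAP3K4), which acts upstream of p38 and JNK.

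Promoter sequences from RefSeq (GRCh38.p14) were matched for 8 of the 10 members, and 4 are shown to set genes that rose beside 1 that fell. They run 5′ to 3′ on the strand of the gene, begin 250 bases before the RefSeq start and stop where an annotated GENCODE exon begins. Capitals mark matches, on either strand, to CCAAT (the NF-Y box), CACGTG (E-box), GGGCGG (GC box), and TTTGAA or TTTAAA (the CHR element of cell cycle promoters). The AP-1 motif TGANTCA and the longer CRE and E2F motifs were also searched on both strands and had no match in these windows.
CDKN2C, chr1:50960495-50960744, plus strand: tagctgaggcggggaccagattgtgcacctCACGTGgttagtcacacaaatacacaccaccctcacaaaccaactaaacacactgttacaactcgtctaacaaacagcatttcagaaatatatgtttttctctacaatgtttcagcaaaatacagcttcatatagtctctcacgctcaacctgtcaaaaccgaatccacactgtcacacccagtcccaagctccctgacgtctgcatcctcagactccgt
CDKN2D, chr19:10569060-10569229, minus strand: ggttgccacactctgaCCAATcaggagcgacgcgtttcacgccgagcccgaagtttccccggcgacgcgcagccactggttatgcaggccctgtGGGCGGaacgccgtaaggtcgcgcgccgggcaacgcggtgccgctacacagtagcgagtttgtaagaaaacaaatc
CDKN3, chr14:54396757-54396848, plus strand: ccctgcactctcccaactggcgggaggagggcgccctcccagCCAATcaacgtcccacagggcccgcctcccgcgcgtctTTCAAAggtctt
GADD45B, chr19:2475877-2476121, plus strand: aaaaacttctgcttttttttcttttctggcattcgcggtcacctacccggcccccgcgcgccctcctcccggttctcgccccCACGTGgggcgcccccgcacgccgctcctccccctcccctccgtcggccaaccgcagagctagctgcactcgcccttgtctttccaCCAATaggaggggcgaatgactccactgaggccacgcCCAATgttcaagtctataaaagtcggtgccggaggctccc
The CDKN3 window held a CCAAT box 208 bases before the RefSeq start and, 170 bases before it, a CHR match on the reverse strand. GENCODE and the count table start CDKN3 158 bases further upstream (54396849), so both matches lie nearer to that start. Over the 250 bases before the start of 35116 RefSeq promoter entries, 32% held CCAAT, 21.9% a CHR match, 42.6% a GC box and 6.34% the E-box. The printed stretches of CDKN3 (92 bases), CDKN2D (170) and GADD45B (245) are shorter, so they cannot be set directly against these percentages. The parts not printed held a further CCAAT match in CDKN3 and a further GC box in CDKN2D, 83 and 44 bases before the RefSeq start. CCAAT stood in windows of genes that rose (CDKN2D, CDKN3) and of one that fell (GADD45B). CDKN2C has 3 RefSeq starts, of which the most upstream is shown, and gene counts do not say which was used. These matches describe the sequence only.

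Of the 9 listed genes, all of which passed the filter, 5 rose with khellin, 3 fell and 1 did not pass the test. CDKN1C, CDKN2C, CDKN2D, CDKN3 and CDKN1B were the genes that rose, and GADD45A, GADD45B and CDKN1A those that fell. Calls were made with the quasi-likelihood test of edgeR at a threshold of 0.05 on Benjamini-Hochberg adjusted p-values over all tested genes. By the same test 10.6% of all tested genes were higher, 8.82% lower and 19.4% changed in either direction. In 8 of the 9 genes the control and khellin libraries did not overlap in CPM, with khellin higher in 5 and lower in 3. Over all tested genes this was so for 38.2%, with khellin higher in 20.2% and lower in 18%. CPM are counts relative to library size, scaled with TMM factors that adjust for library composition. Control replicate 3 was the highest control library in all 9 genes, and without it the same 5 genes were higher and the same 3 lower. The share of all tested genes in which that library was the highest control is not given here, so this is not a trait of these genes. The median log2 fold change was 0.29 over the 9 genes and 0.0024 over all tested genes. In bulk RNA, a change in the share of cells in a cycle phase and a change in RNA per cell cannot be told apart.

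**Figure D1:**
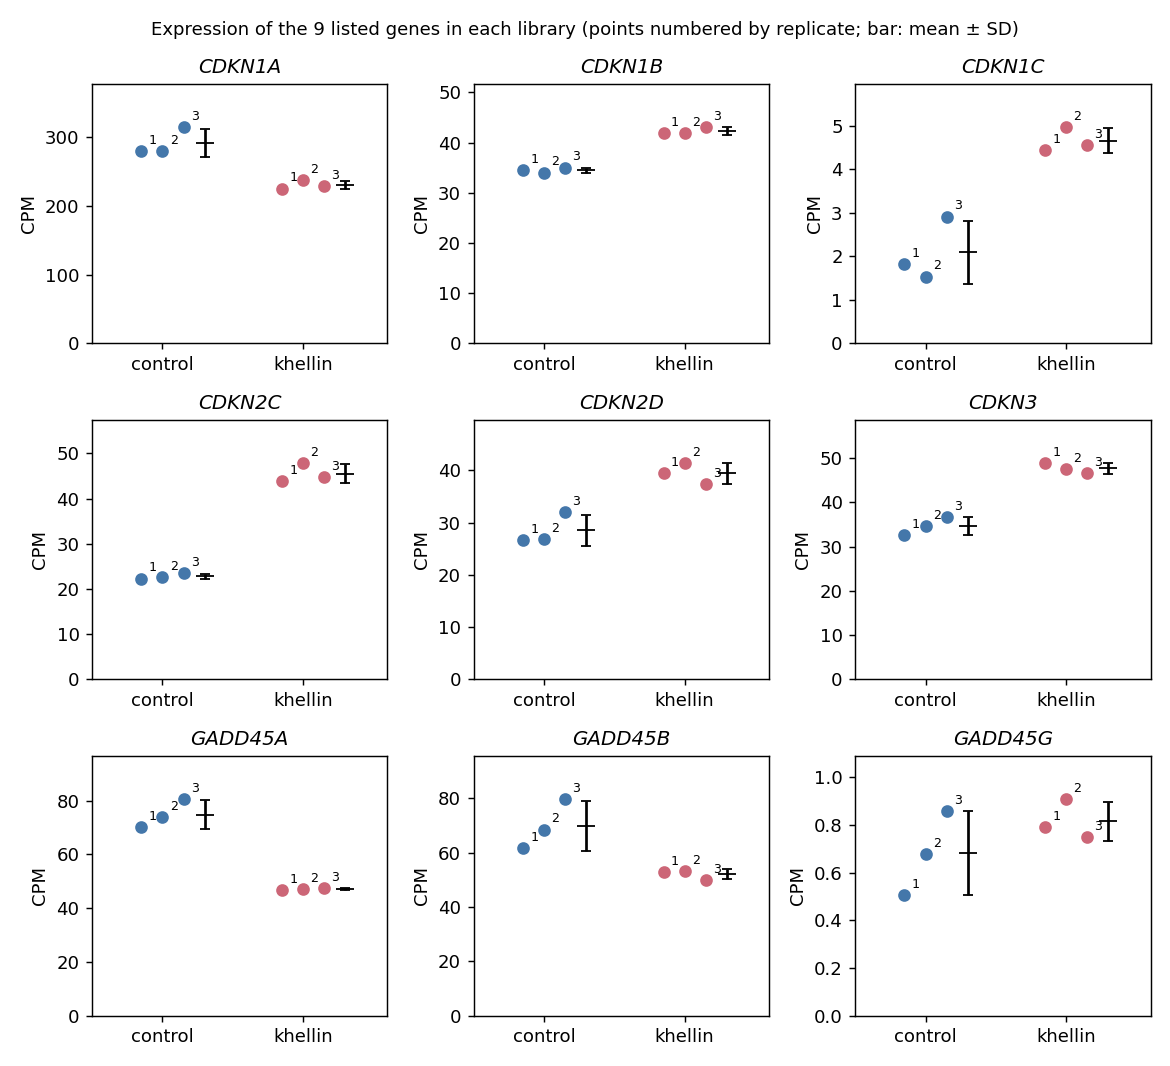
Expression of the 9 listed genes in CPM (y axis, from 0, a scale of its own for each gene), with 1 point per library numbered by replicate and a bar for the mean ± SD (n = 3 per group). The khellin libraries sit below the control libraries for CDKN1A, GADD45A and GADD45B and above them for the other genes except GADD45G, whose groups overlap.

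Among the Cip/Kip genes the most abundant fell while the other two rose. CDKN1A encodes p21, the inhibitor best known as a target of p53, and is located on chromosome 6 (ENSG00000124762, plus strand, 36676460 to 36687337). It had 8295, 8246 and 9529 reads in control replicates 1 to 3 and 6529, 7056 and 7047 in khellin replicates 1 to 3. Every khellin library lay below every control library, and control replicate 3 was the highest. The level fell from 291.9 ± 20.2 to 230.6 ± 6.14 CPM (SD, n = 3 per group). The log2 fold change was -0.34 (SE 0.0546, edgeR adjusted p = 0.00259), so that control stood 1.27-fold above khellin.

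CDKN1B encodes p27, an inhibitor that is controlled largely through protein turnover (ENSG00000111276, chromosome 12, plus strand, 12685498 to 12722369). It had 1022, 1001 and 1058 reads in the control and 1213, 1246 and 1325 in the khellin libraries. The khellin libraries were all higher, and both groups were tight. Its level rose from 34.5 ± 0.494 to 42.3 ± 0.738 CPM (SD, n = 3 per group), with a log2 fold change of 0.29 (SE 0.0538, edgeR adjusted p = 0.00535). The gene model of the table starts well upstream of that of GENCODE release 29 (12715058) and overlaps GPR19 on the opposite strand, which had 40 to 60 reads per library. The sources used here do not say whether the counting used strand.

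CDKN1C encodes p57, an inhibitor expressed from an imprinted locus (ENSG00000129757, chromosome 11, minus strand, 2883213 to 2885775). This gene was the least abundant of the 3, with 54, 45 and 88 reads in the control and 129, 148 and 140 in the khellin libraries. All khellin libraries were above the control libraries, among which replicate 3 was the highest. The level rose from 2.09 ± 0.728 to 4.66 ± 0.279 CPM (n = 3 per group), the widest relative spread of the genes that changed. Its log2 fold change of 1.15 (SE 0.198, edgeR adjusted p = 0.00418) was the largest of the 9 genes and ran from 0.97 without control replicate 2 to 1.47 without control replicate 3.

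Both INK4 genes described here, CDKN2C and CDKN2D, rose. CDKN2C encodes p18, which binds CDK6 and CDK4 (ENSG00000123080, chromosome 1, plus strand, 50960745 to 50974634). It had 660, 664 and 709 reads in the control and 1273, 1423 and 1376 in the khellin libraries. The lowest khellin library lay far above the highest control library. The level went from 22.8 ± 0.608 to 45.5 ± 2.07 CPM (SD, n = 3 per group), a 1.998-fold rise (log2 fold change 0.999, SE 0.0613). CDKN2C had the smallest p of the 9 genes (edgeR adjusted p = 1.32e-05), and only 1.66% of all tested genes had a larger absolute log2 fold change. FAF1, which starts 478 bases upstream of CDKN2C and runs away from it on the opposite strand, stood at -0.05 (SE 0.0451, edgeR adjusted p = 0.454).

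CDKN2D encodes p19 of the INK4 family, also an inhibitor of CDK4 and CDK6 (ENSG00000129355, chromosome 19, minus strand, 10566460 to 10569059). It had 789, 791 and 966 reads in the control and 1142, 1230 and 1149 in the khellin libraries. The groups did not overlap, although control replicate 3 stood above the other two control libraries. Its level rose from 28.5 ± 3.0 to 39.4 ± 1.97 CPM (SD, n = 3 per group), with a log2 fold change of 0.47 (SE 0.0818, edgeR adjusted p = 0.00417). The nearest gene, KRI1, 429 bases away on the same strand, had a log2 fold change of -0.04 (SE 0.0556, edgeR adjusted p = 0.685).

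CDKN3, the CDK2 phosphatase gene, rose to a similar degree (ENSG00000100526, chromosome 14, plus strand, 54396849 to 54420218). It had 965, 1021 and 1108 reads in the control and 1418, 1416 and 1431 in the khellin libraries. The khellin counts were nearly equal and all above control. The level rose from 34.6 ± 2.03 to 47.7 ± 1.16 CPM (SD, n = 3 per group), with a log2 fold change of 0.46 (SE 0.0620, edgeR adjusted p = 0.00102).

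The GADD45 genes that were well expressed fell. GADD45A, induced by DNA damage and other stresses, is located on chromosome 1 (ENSG00000116717, plus strand, 67685201 to 67688334). It had 2075, 2175 and 2431 reads in the control and 1356, 1396 and 1458 in the khellin libraries. All khellin libraries were lower and close to each other. The level fell from 74.8 ± 5.22 to 47.05 ± 0.369 CPM (SD, n = 3 per group), with a log2 fold change of -0.67 (SE 0.0608, edgeR adjusted p = 0.000117). Control thus stood 1.59-fold above khellin, the largest fall of the 9 genes.

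GADD45B, an immediate response gene to cytokines and TGF-beta, is located on chromosome 19 (ENSG00000099860, plus strand, 2476122 to 2478259). It had 1824, 2017 and 2408 reads in the control and 1537, 1585 and 1538 in the khellin libraries. The groups did not overlap, but the control libraries spread widely. The level fell from 69.9 ± 9.11 to 52.1 ± 1.78 CPM (SD, n = 3 per group), with a log2 fold change of -0.42 (SE 0.0875, edgeR adjusted p = 0.00974). The call was lost without khellin replicate 3 (log2 fold change -0.40, edgeR adjusted p = 0.0522), and adjusted p-values over all 14 alternatives ran from 5.59e-05 to that value.

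GADD45G, the third gene of the family, was barely expressed (ENSG00000130222, chromosome 9, plus strand, 89605012 to 89606555). It had 15, 20 and 26 reads in the control and 23, 27 and 23 in the khellin libraries, and the groups overlapped. The log2 fold change of 0.25 (SE 0.239) did not pass edgeR's test (adjusted p = 0.502), so no difference was detectable at this depth.

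**Figure D2:**
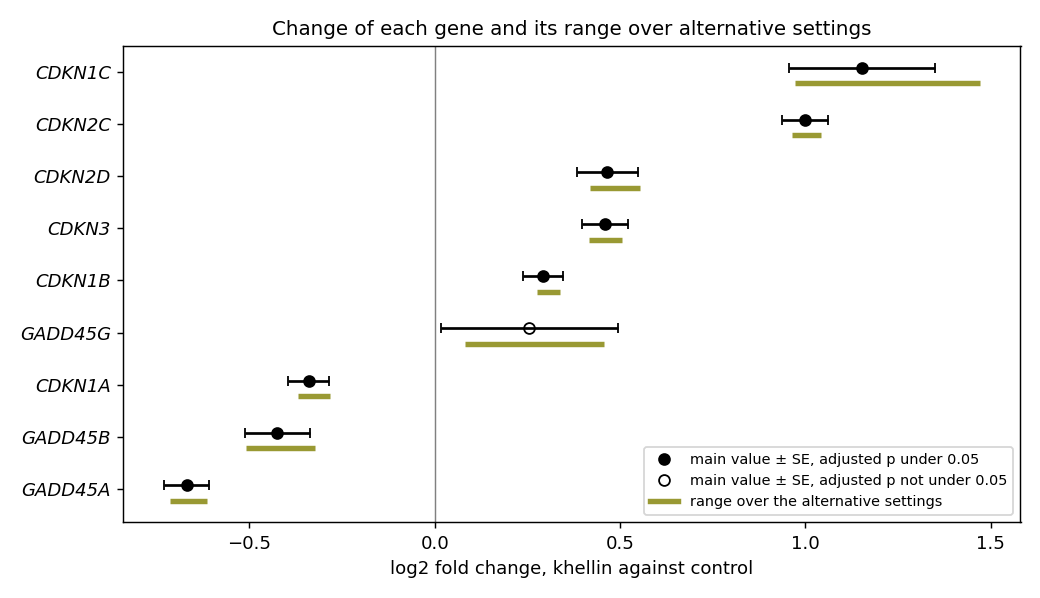
Log2 fold change of khellin against control (x axis) for each of the 9 genes, as points with their SE and filled where the edgeR adjusted p was under 0.05; the bars below give the lowest and highest value over the alternative settings. No bar crosses 0, and the widest among the genes that changed is that of CDKN1C, from 0.97 to 1.47.

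Levels were compared between genes as CPM per kilobase of exon, with exon lengths from GENCODE release 29. CDKN1A was the most abundant of the 9 genes in both groups, at 95.7 ± 6.63 in the control and 75.6 ± 2.01 CPM per kilobase in the khellin libraries (n = 3 per group). In the control libraries GADD45A (36.2 ± 2.53) and GADD45B (32.7 ± 4.26) followed, and their ranges overlapped. CDKN2D (19.0 ± 1.996) and CDKN3 (18.9 ± 1.11) came next, also with overlapping ranges, then CDKN1B (12.3 ± 0.176) and CDKN2C (6.86 ± 0.183). CDKN1C (0.843 ± 0.294) and GADD45G (0.516 ± 0.134) were far below. In the khellin libraries the order changed in the middle. CDKN2D (26.2 ± 1.31), CDKN3 (26.0 ± 0.629), GADD45B (24.4 ± 0.833) and GADD45A (22.7 ± 0.178) now lay close together, and CDKN2C (13.7 ± 0.624) had nearly reached CDKN1B (15.04 ± 0.262), although the lowest CDKN1B library (14.9) lay above the highest CDKN2C library (14.4). That last order rests on the exon lengths, 2811 bases for CDKN1B and 3318 for CDKN2C, and the CDKN1B model of the table differs from that of GENCODE, so it is uncertain; in raw counts CDKN2C was above CDKN1B in each khellin library.

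The 5 genes of CDK-binding inhibitors were also summed on this length-scaled level, a sum chosen after the values were seen and given without a test. It was 129.3, 129.3 and 145.3 CPM per kilobase in control replicates 1 to 3 and 129.9, 136.6 and 130.8 in khellin replicates 1 to 3, so the groups overlapped. CDKN1A made up 71.1% of the mean sum in the control and 57.1% in the khellin libraries. Without CDKN1A the sum went from 38.9 ± 2.61 to 56.8 ± 1.76 CPM per kilobase (n = 3 per group). The summed GADD45 genes stood at 69.4 ± 6.92 in the control and 47.7 ± 0.719 CPM per kilobase in the khellin libraries.

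**Figure D3:**
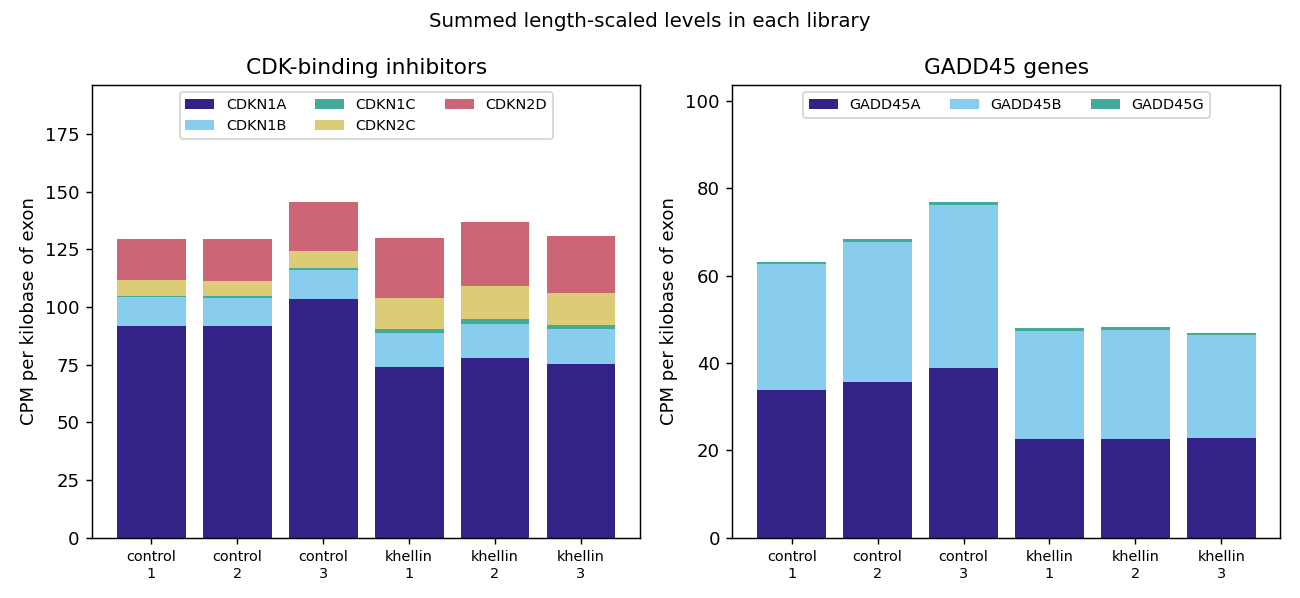
Stacked levels in CPM per kilobase of exon (y axis, from 0) in each of the 6 libraries, for the 5 genes of CDK-binding inhibitors (left) and the 3 GADD45 genes (right). The left stacks reach 129.3 to 145.3 in the control and 129.9 to 136.6 in the khellin libraries with a smaller CDKN1A segment in khellin, and the right stacks are lower in all 3 khellin libraries.

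Shares of raw counts within a family do not depend on how libraries are scaled. CDKN1A took 88.5%, 88.7% and 89.3% of Cip/Kip counts in the control and 82.95%, 83.5% and 82.8% in the khellin libraries, without overlap. The mean fell by 5.76 percentage points (exact permutation p = 0.1, two-sided, n = 3 per group, the smallest value that 3 against 3 libraries allow). CDKN2C took 44.5 ± 1.88% of the counts of CDKN2C and CDKN2D in the control and 53.6 ± 0.892% in the khellin libraries (2-sided exact permutation test, p = 0.1, n = 3 per group). Within the GADD45 family the share of GADD45A went from 51.5 ± 1.53% to 47.1 ± 1.06% and that of GADD45B from 48.0 ± 1.45% to 52.1 ± 1.01% (exact permutation p = 0.1 for each, n = 3 per group). As GADD45G had few reads, the shares of GADD45A and GADD45B nearly mirror each other and are not separate results. In each of these shares the groups did not overlap, which describes these libraries only. None of the 4 shares could pass a threshold of 0.05 with this number of libraries, and Benjamini-Hochberg adjustment over the 4 leaves p at 0.1.

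The kinases and cyclins that the inhibitors bind went both ways. Of 13 such genes, 5 rose, 3 fell and 5 did not pass edgeR's test, with a median log2 fold change of 0.15. Among all tested genes 10.6% rose and 8.82% fell by the same test. Cyclin genes of the later phases rose, CCNB1 by 0.56 (SE 0.0431), CCNB2 by 0.61 (SE 0.0519) and CCNA2 by 0.43 (SE 0.0625), as did the germline-type cyclin gene CCNA1 by 0.36 (SE 0.0886). CDK2, the kinase on which p21, p27 and CDKN3 act, rose by 0.21 (SE 0.0458). CDK4, the kinase bound by INK4 proteins, fell by 0.17 (SE 0.0447). CCNE1, which encodes the G1/S cyclin partner of CDK2, fell by 0.37 (SE 0.0749), and CCND2, a D-type cyclin gene, by 0.39 (SE 0.106). CCND1 stood at -0.08 (SE 0.0416) and CDK1 at 0.26 (SE 0.1004) without passing the test, although CDK1 passed with a replicate block, without control replicate 1 and without khellin replicate 2 (edgeR adjusted p from 0.0156 to 0.0294). CCNB1, CCNB2 and CCNA2 kept their calls in all 14 alternatives, whereas the other 5 calls did not. The call on CCNE1 did not hold without khellin replicate 3 (adjusted p = 0.0509 in edgeR). CCNA1, CDK2, CDK4 and CCND2 lost theirs without control replicate 2 or any khellin replicate (adjusted p of at most 0.111 in edgeR), CCND2 also under DESeq2 and without control replicate 3, and CDK4 also with library size alone. The counts were 3 higher and 1 lower without control replicate 2 or khellin replicate 1, and 3 higher and 0 lower without khellin replicate 3. Without khellin replicate 2 the number of lower genes was also 1.

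Pocket proteins and E2F factors, which carry the output of CDK inhibition, were called about as often as all tested genes (19.4%). In edgeR's test 3 of 13 genes rose, 0 fell and 10 were not called (median log2 fold change 0.05). E2F2, an activating member, rose from 12.7 ± 0.884 to 17.3 ± 0.353 CPM (SD, n = 3 per group), with a log2 fold change of 0.44 (SE 0.0733). E2F8, a repressive member, rose by 0.38 (SE 0.0603) and RBL2, which encodes the pocket protein p130, by 0.28 (SE 0.0604). The RBL2 call did not hold without khellin replicate 1 or 3 (adjusted p in edgeR of at most 0.0571). Without control replicate 1 the list had 5 higher genes and 1 lower, and 1 lower gene also appeared without control replicate 3, with no filter on low counts and under DESeq2.

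Genes that govern turnover and localization of p27 and p21 were likewise called at about the share of all tested genes (19.4%). In edgeR's test 2 of 15 rose, 1 fell and 12 were not called (median -0.01). CDC20, an activator of the anaphase-promoting complex, rose by 0.50 (SE 0.0651) and CKS1B, the cofactor that lets the SKP2 ligase bind p27, by 0.27 (SE 0.0581). CDC20 is also counted among the G2/M genes described below. PSME3, which encodes a proteasome activator that degrades p21, fell by 0.16 (SE 0.0380). The CKS1B call was lost without control replicate 2 or khellin replicate 3, leaving 1 higher gene, and the PSME3 call without control replicate 2, without any khellin replicate and with library size alone, leaving 0 lower genes (edgeR adjusted p of at most 0.0882 for both genes).

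Of 19 genes of transcription factors and their inhibitors known to act on these promoters, 6 rose, 1 fell and 12 did not pass edgeR's test (median 0.05). Among all tested genes 10.6% rose, 8.82% fell and 19.4% changed in either direction. ID1, which blocks the basic helix-loop-helix factors that activate inhibitor genes, had 2145, 2296 and 2523 reads in the control and 4092, 4328 and 4389 in the khellin libraries. Its khellin libraries were all far above control, a log2 fold change of 0.88 (SE 0.0566, edgeR adjusted p = 1.66e-05). MYC, known to repress CDKN1A, was the gene that fell, with levels of 263.3 ± 9.51 CPM in the control and 198.0 ± 4.40 CPM in the khellin libraries (SD, n = 3 per group; log2 fold change -0.41, SE 0.0442). EGR1 rose by 0.30 (SE 0.0586) and SP1, which binds GC boxes, by 0.22 (SE 0.0459). The number of higher genes was 3 without control replicate 2 or any of the khellin replicates.

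Most other target genes of p53 did not pass the test, and the share called was near the 19.4% of all tested genes. In edgeR's test 3 of 26 rose, 3 fell and 20 were not called (median 0.04). DDB2, a damage recognition factor of nucleotide excision repair, had 484, 535 and 507 reads in the control and 904, 860 and 876 in the khellin libraries. All khellin libraries were higher, with a log2 fold change of 0.79 (SE 0.0694, edgeR adjusted p = 9.54e-05). PLK2, a stress-induced kinase gene, fell by 0.41 (SE 0.0402) and AEN, an apoptosis nuclease gene, by 0.34 (SE 0.0707), of which AEN was no longer called without khellin replicate 1 (edgeR adjusted p = 0.0559). MDM2, the feedback inhibitor of p53, stood at 0.24 (SE 0.110) and did not pass (edgeR adjusted p = 0.173), except without control replicate 1 (adjusted p = 0.0131). The list had 1 higher gene without khellin replicate 1 or 2 or without the second control replicate, 5 higher without control replicate 3, and 1 lower without khellin replicate 1.

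In the pathway downstream of GADD45 the kinase genes MAP2K6 and MAP2K3, both of which encode activators of p38, changed in opposite directions. Of 13 genes of this pathway and of GADD45 partners, PCNA among them, 1 rose, 2 fell and 10 did not pass edgeR's test (median -0.02). The share called was near the 19.4% of all tested genes. MAP2K6 had 20, 22 and 15 reads in the control and 80, 77 and 85 in the khellin libraries. Every khellin library was well above control, a log2 fold change of 2.08 (SE 0.170, edgeR adjusted p = 6.29e-05) at a low level. MAP2K3, far more abundant in reads, went from 174.2 ± 10.5 to 127.6 ± 1.42 CPM (SD, n = 3 per group; log2 fold change -0.45, SE 0.0511). MAPK13, a p38 gene, had a log2 fold change of -0.17 (SE 0.0415), a call lost without control replicate 2, without any khellin replicate and with library size alone (edgeR adjusted p of at most 0.103), each of which left 1 lower gene. With library size alone and without control replicate 1, 2 genes were higher. MAP3K4 itself, the kinase that GADD45 proteins bind, stood at -0.02 (SE 0.0555, edgeR adjusted p = 0.811).

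CDKN3 rose together with the G2/M genes among which it is usually expressed. In edgeR's test 14 of 15 such genes rose, 0 fell and CKS2 was not called, with a median log2 fold change of 0.45 beside 0.46 for CDKN3. Among all tested genes 10.6% rose. AURKA and PLK1, which encode mitotic kinases, rose by 0.58 (SE 0.0389) and 0.63 (SE 0.0474). CDC25C, which encodes the phosphatase that activates CDK1, rose by 0.62 (SE 0.0620) and MKI67, a proliferation marker, by 0.51 (SE 0.0572). The number of higher genes ran from 11 to 14 over the 14 alternatives. The higher level of mitotic genes in these libraries was known from earlier results on them, so the count is not independent support.

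**Figure D4:**
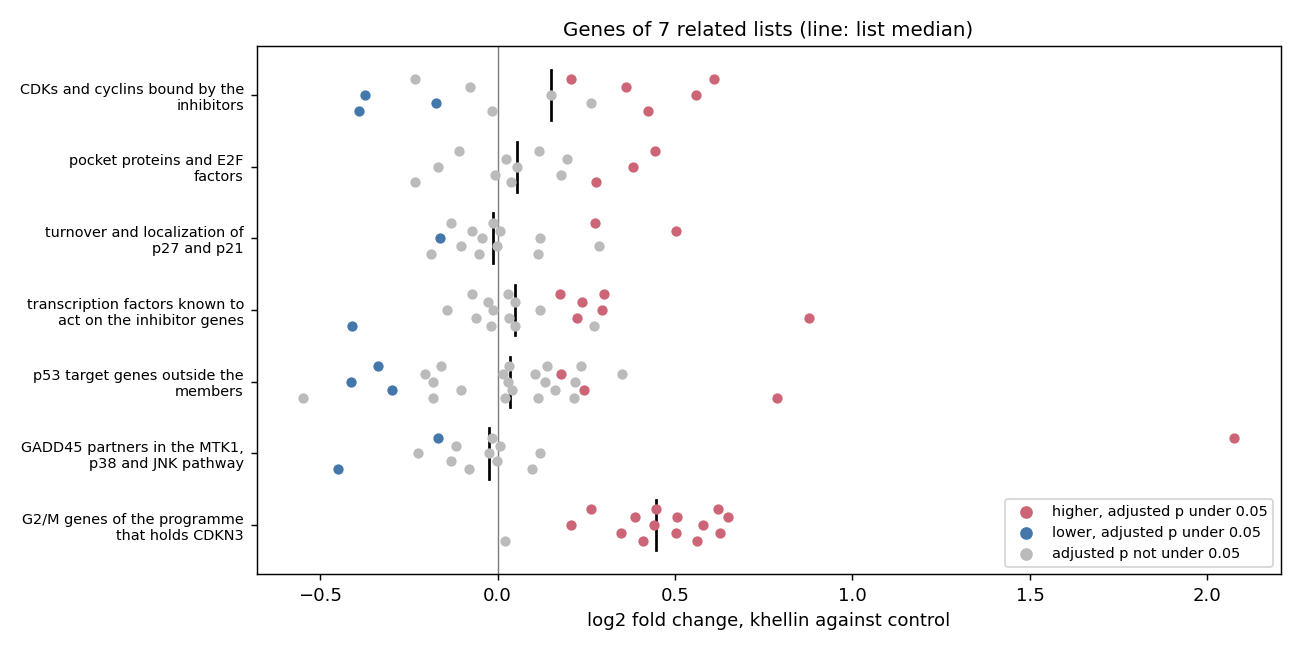
Log2 fold change of khellin against control (x axis) for each tested gene of the 7 lists, 1 point per gene, coloured where edgeR's adjusted p was under 0.05, with the list median as a line. The G2/M list lies to the right of 0 with a median of 0.45, the other medians lie between -0.02 and 0.15, and MAP2K6 stands apart at 2.08.

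Over the 6 libraries, the 5 genes whose log2 CPM was most like that of CDKN2C among 10847 candidates were KNSTRN, CDC25C, EFHD1, IDH1 and DUSP4 (Pearson's r of 0.999 for each). The libraries fell into the control and khellin groups for each of these genes, so r describes chiefly that split and is given without a p. Their own log2 fold changes were 0.35, 0.62, 0.63, 0.35 and 0.65, all smaller than that of CDKN2C. Of the tested genes overlapping a member or within 5 kb of it, only APOLD1 passed edgeR's test, beside 19.4% of all tested genes. APOLD1, 3548 bases downstream of CDKN1B on the same strand, had 111, 116 and 124 reads in the control and 179, 153 and 195 in the khellin libraries (log2 fold change 0.58, SE 0.110, edgeR adjusted p = 0.0061). CNIH1 near CDKN3 (-0.14), AP1M2 near CDKN2D (-0.28), GPR19 (0.21), FAF1 (-0.05) and KRI1 (-0.04) did not pass. PANDAR and DINOL, noncoding RNA genes at CDKN1A, had 0 to 5 reads per library.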

How the data were processed

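Per the labels' protocols, TRIzol was used for RNA extraction and a VAHTS Universal kit for the libraries. The authors deposited raw read counts per gene, and the submitters' processing notes name fastp, HISAT2 and HTSeq. For versions, strand setting, build and annotation the sources used here give nothing. GENCODE release 29 (GRCh38) shared 25378 identifiers with the table, and for 25358 the coordinates overlapped. Groups follow the sample titles, which say biological replicates without naming separate cultures, so p-values measure the spread between these samples. Replicate pairs differed by 1.91 to 20.8 chi-square per degree of freedom (genes with at least 20 reads per pair), so none was a copy. Control pairs ran from 7.10 to 20.8, the highest between replicates 1 and 3, and khellin pairs from 1.91 to 5.40, so the control libraries were the more uneven group.

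The filter was filterByExpr of edgeR by group (15865 of 27776 genes kept). Counts were scaled with TMM factors and tested in a robust quasi-likelihood fit of edgeR with group as the only term, two-sided, with Benjamini-Hochberg adjustment. The SE is the absolute log2 fold change divided by the square root of F. The biological coefficient of variation was 6.95%, and 3 counts corresponded to 0.0977 to 0.103 CPM. The members and gene lists were chosen with earlier results of these data known. Named genes are the members, the 3 genes of each list with the smallest p, the 5 genes most like the member with the smallest p (mean of at least 5 CPM), and neighbours within 5 kb. CCNA1, CCNE1, CDK2, CDK4, CCND1, CCND2, CDK1, SP1, MDM2, MKI67, CKS2 and MAP3K4 were named after their values were seen. Each library was left out in turn. Other alternatives were limma-voom, DESeq2, a replicate block, upper quartile or RLE factors, no scaling beyond library size, and no filter or one of 1 CPM in 3 libraries. Versions were edgeR 4.0.16 and limma 3.58.1 in R 4.3.3, DESeq2 1.42.0, and Python 3.11.15.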

Additional observations from a re-analysis of the deposited data

How the results depend on the processing

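The 9 genes gave 125 values over the 14 alternatives (GADD45G did not pass the filter of 1 CPM in 3 libraries), all with the direction reported and 124 on the same side of the threshold, the exception being GADD45B without khellin replicate 3. Of 518 values for 37 other genes followed over the alternatives, none changed direction, 38 lost the call and 4 gained one. These genes include POLH, a p53 target not described above, which lost its call in 3 alternatives. CKS2, MAP3K4, the marker genes and the neighbours other than APOLD1 were not among them. Over all genes 1681 were higher and 1399 lower, and with 1 library left out the numbers ran from 919 to 1990 higher and from 643 to 1722 lower; they were 978 and 769 without control replicate 2, 960 and 691 without khellin replicate 1, 1073 and 836 without khellin replicate 2, and 919 and 643 without khellin replicate 3. Scaled by library size alone, 2208 genes were higher and 986 lower (69.1% of calls higher against 54.6%) and moved the median log2 fold change of all genes to 0.046, and relative to that shift each of the 9 genes kept its sign. With a replicate block 1533 genes were higher and 1282 lower, with 5 and 3 of the 9 genes as before. The correlation of deviations between same-numbered control and khellin libraries was 0.14, 0.03 and -0.12. Between libraries of different number it ran from -0.25 to 0.21. With 3 libraries per group these values cannot decide whether same-numbered libraries were paired, and the labels state no pairing. The differences in family share under the replicate block were -5.76, 9.11, -4.47 and 4.12 percentage points (exact sign-flip permutation p = 0.25, the smallest possible with n = 3 pairs). With 1 library left out they ran from -5.97 to -5.55 for CDKN1A, 8.02 to 9.68 for CDKN2C, -5.26 to -3.74 for GADD45A and 3.42 to 4.87 for GADD45B. Depth limits GADD45G, with at most 27 reads per library.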
